A study of Mus musculus with 6 samples.

Results

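TRiC, also called CCT, is the chaperonin of the eukaryotic cytosol, a barrel of stacked rings that encloses newly made proteins and folds them with the energy of ATP. The genes described here encode its 8 subunits, Tcp1, Cct2, Cct3, Cct4, Cct5, Cct6a, Cct7 and Cct8. They were chosen by symbol, and all 8 were found among the 56748 genes listed. Each subunit holds a fixed place in every ring, so that an assembled ring needs every one of them. Actins and tubulins are the best known proteins that depend on TRiC, which in dividing blood cells also folds the mitotic activator Cdc20.

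Ribosome profiling, which sequences the mRNA fragments that translating ribosomes shield from a nuclease, was carried out on Lin-c-Kit+ mouse cells, called hematopoietic stem cells in the labels. Of the 6 libraries, 3 came from Mov10 knockout (KO) mice and 3 from wild-type (WT) mice, and both genotypes had received 4.5 Gy of irradiation 12 days before. The sources used here give neither the strain, age and sex of the mice nor the knockout allele. They also do not say whether replicates are separate animals, so that p-values may measure technical spread only. A footprint count combines mRNA abundance with ribosome occupancy, and mRNA levels were not analysed here. In a sorted population, more cells of a kind and more footprints per cell cannot be told apart.

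The KO libraries held 1118345 to 1352517 reads and the WT libraries 2260348 to 2499634, so depth and genotype went together. Levels are the authors' normalized reads, that is, reads divided by 1 size factor per library. Mov10, the targeted gene, had 51.0, 89.0 and 46.3 normalized reads in the KO libraries, against 110.4, 106 and 104 in the WT libraries, a log2 fold change of -0.84 (SE 0.27) that missed the threshold (limma, adjusted p = 0.0598). Without KO replicate 2 it was -1.12 and past the threshold (limma, adjusted p = 0.00692). Kit, which defines the gate, had 1122 ± 35.7 normalized reads in KO cells and 1099 ± 15.8 in WT cells (SD, n = 3 each). Of 17114 genes tested with limma, 10.3% were called higher and 10.9% lower in KO cells at an adjusted p under 0.05, together 21.2%. Without WT replicates 1, 2 and 3 in turn, the 3628 calls became 1449, 1284 and 1239, and the 1871 lower ones 501, 406 and 403.

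Footprints of most TRiC subunit genes were higher in KO cells, but not by one common factor. Cct7, Cct8, Cct2, Cct3 and Cct5, which is 5 of the 8 against a background of 10.3%, were called higher, by 1.68-fold to 2.62-fold. Cct4 and Cct6a had higher values in every KO library and missed the threshold, and Tcp1 had lower values in every KO library and was not called. No subunit was called lower, against a background of 10.9%. All KO libraries lay above all WT libraries in 7 of the 8 subunit genes, against 16.9% of all genes tested, and all below in 1, Tcp1, against 22.9%.

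The subunit genes are among the most heavily read in these cells, between the 96.1 and the 99.7 percentile of genes tested by mean level, and heavily read genes leaned to higher values in KO cells. Of the 676 genes read at least as often as Tcp1, the least read subunit at a mean of 445 normalized reads, 55.0% were called higher and 12.7% lower, and in 62.3% all KO libraries lay above all WT libraries. That level was set after the values were seen. Read against genes of this level, 5 called of 8 is close to the background. The median log2 fold change of the 8 was 0.74, against 0.41 for the 676 genes and -0.17 for all genes tested.

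**Figure D1:**
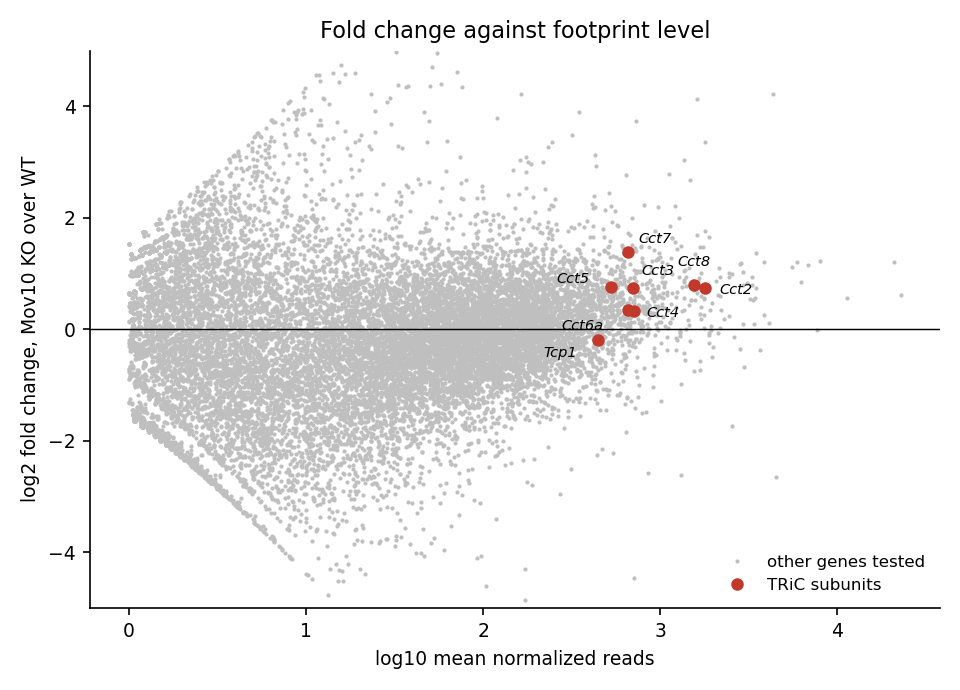
Each grey point is a tested gene, with the log10 of its mean normalized reads on the x axis and its log2 fold change, Mov10 KO over WT, on the y axis. The red points are the 8 TRiC subunit genes, which sit at the heavily read end between -0.19 for Tcp1 and 1.39 for Cct7. Genes beyond 5 in either direction are not drawn.

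The subunits bind ATP with unequal strength, which is known from yeast TRiC, where the strong binders (the counterparts of Tcp1, Cct2, Cct4 and Cct5) lie on one side of the ring and the weak binders (those of Cct3, Cct6a, Cct7 and Cct8) on the other. The genes are taken in that order. The gene positions are those of the deposited table, on GRCm39.

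Tcp1, the alpha subunit, gave the complex its name (ENSMUSG00000068039, chromosome 17, 13134588 to 13143954, plus strand). It had 389, 419 and 439.9 normalized reads in the KO libraries, against 499, 456 and 468 in the WT libraries. All KO values lay under all WT values, by a small margin between the highest KO and the lowest WT library. The log2 fold change was -0.19 (SE 0.10, limma, adjusted p = 0.204), and Tcp1 is the only subunit gene with a negative value. It was called lower, at -0.42, -0.44 and -0.42, with library totals, after cyclic loess and in libraries thinned to equal depth, and stood at 0.01 with upper-quartile scaling.

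Cct2, the beta subunit, had the most footprints of the 8, also per kb of gene (ENSMUSG00000034024, chromosome 10, 116886906 to 116899719, minus strand). It had 1975, 2323 and 2399 normalized reads in the KO libraries, against 1365, 1270.3 and 1358 in the WT libraries. The lowest KO library was well above the highest WT library. Cct2 was 1.68-fold higher in KO cells, with a log2 fold change of 0.74 (SE 0.08, limma, adjusted p = 0.000619). After cyclic loess, which takes out the trend with level, it was 0.19 and no longer called (adjusted p = 0.145).

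Cct4, the delta subunit, and Cct5, the epsilon subunit, are both linked to sensory neuropathy, Cct4 in the rat and Cct5 in people. Cct4 (ENSMUSG00000007739, chromosome 11, 22940519 to 22953780, plus strand) had 787, 707 and 894 normalized reads in the KO libraries, against 651, 606 and 639.8 in the WT libraries. The groups did not overlap, but the KO libraries were spread widely, and the log2 fold change of 0.33 (SE 0.10) missed the threshold (limma, adjusted p = 0.0509). Cct5 (ENSMUSG00000022234, chromosome 15, 31590946 to 31601950, minus strand) had 522, 686 and 781 normalized reads in the KO libraries, against 437, 361 and 370.0 in the WT libraries. Again the groups were apart, with KO replicate 1 the lowest of its group. Cct5 was 1.70-fold higher in KO cells, with a log2 fold change of 0.75 (SE 0.15, limma, adjusted p = 0.0115). Its call was lost without WT replicate 2 (adjusted p = 0.0722), without WT replicate 3 (adjusted p = 0.0729) and after cyclic loess (adjusted p = 0.0634).

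Cct3, the gamma subunit (ENSMUSG00000001416, chromosome 3, 88204423 to 88229074, plus strand), had 1015, 846 and 786 normalized reads in the KO libraries, against 580.4, 485 and 511 in the WT libraries. Here KO replicate 1 was the highest of its group, where it was the lowest in Cct5 and Cct2. Cct3 was 1.68-fold higher in KO cells, with a log2 fold change of 0.74 (SE 0.12, limma, adjusted p = 0.00359). Without limma's variance trend its call was lost (adjusted p = 0.0683), as were those of Cct2 (adjusted p = 0.0556) and Cct5 (adjusted p = 0.0930). Cct6a, the zeta subunit made in most tissues (ENSMUSG00000029447, chromosome 5, 129864062 to 129875212, plus strand), had 814, 608 and 806 normalized reads in the KO libraries, against 606, 541 and 583 in the WT libraries. KO replicate 2 lay next to the highest WT library, and the log2 fold change of 0.35 (SE 0.12) missed the threshold (limma, adjusted p = 0.0775). Without KO replicate 2, both Cct4 (0.41, adjusted p = 0.0212) and Cct6a (0.49, adjusted p = 0.0101) were called higher.

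Cct7, the eta subunit, had the largest change of the 8 (ENSMUSG00000030007, chromosome 6, 85428496 to 85445457, plus strand). It had 972, 893 and 977 normalized reads in the KO libraries, against 393, 322 and 368 in the WT libraries. Every KO library was far above every WT library. Cct7 was 2.62-fold higher in KO cells, with a log2 fold change of 1.39 (SE 0.10, limma, adjusted p = 5.75e-05). It was called higher in all 19 alternatives, at 1.08 to 1.59.

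Cct8, the theta subunit (ENSMUSG00000025613, chromosome 16, 87280214 to 87292761, minus strand), had 1845, 1999 and 2094 normalized reads in the KO libraries, against 1234, 1025 and 1154 in the WT libraries. The groups were far apart and both were narrow. Cct8 was 1.74-fold higher in KO cells, with a log2 fold change of 0.80 (SE 0.09, limma, adjusted p = 0.000472), and was called in all 19 alternatives, at 0.28 to 1.00. By side of the ring, 2 of the 4 strong ATP binders and 3 of the 4 weak binders were called higher, and no difference between the sides was tested.

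**Figure D2:**
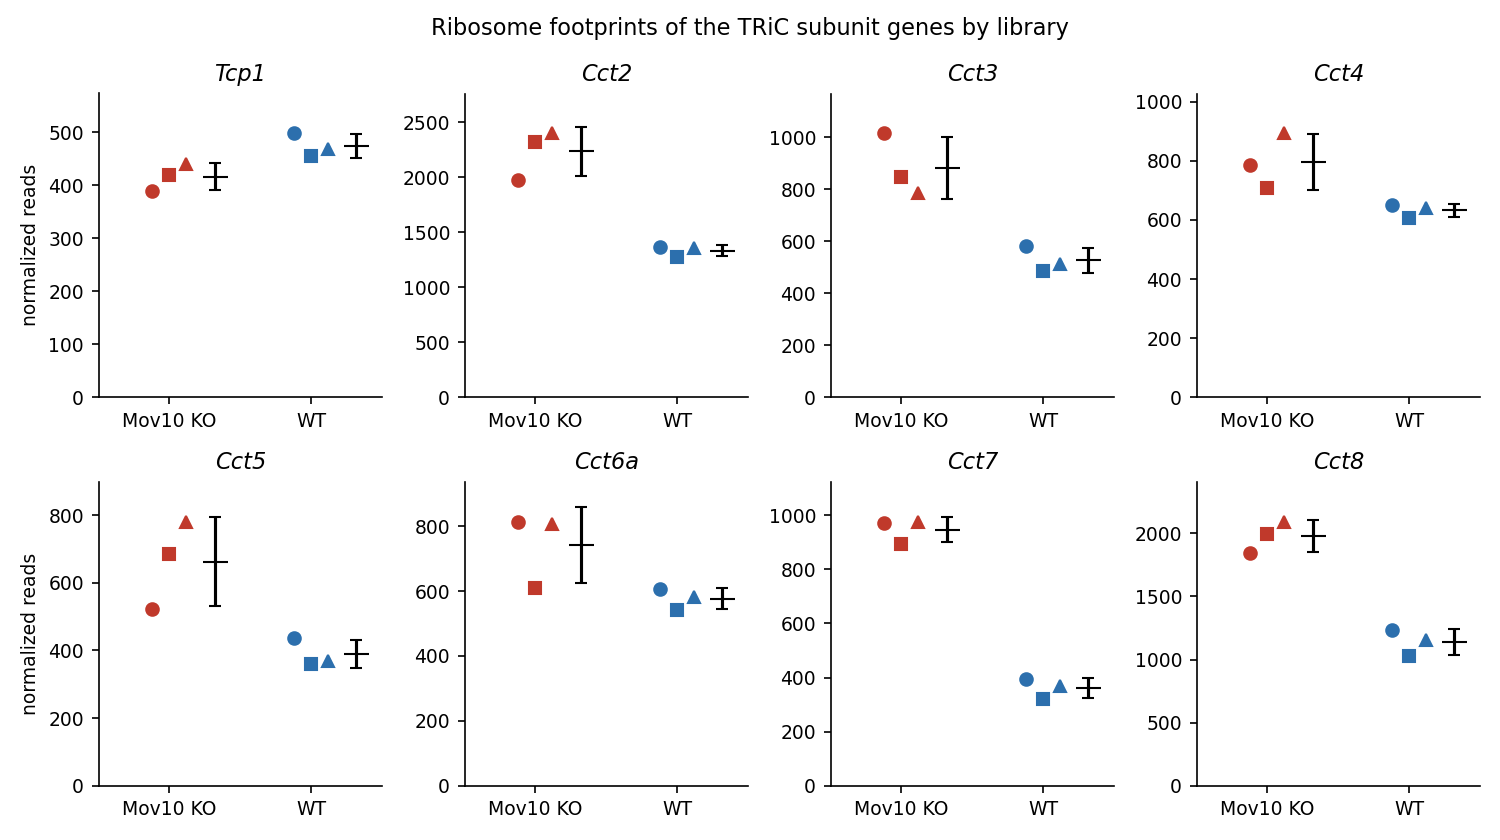
Normalized reads of the 8 subunit genes on the y axis, with the 3 Mov10 KO libraries in red and the 3 WT libraries in blue (circle, square and triangle for replicates 1, 2 and 3) and the mean and SD of each group in black. The KO points lie above the WT points in each panel but that of Tcp1, where they lie below.

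The upstream sequence of the subunit genes is described next, and a link between its letters and the footprint changes was not tested. RefSeq promoter windows (GRCm38.p6, an older build than that of the deposited table) were found for 7 of the 8 genes, with 2 starts each for Cct2 and Cct5, and the 250 bases before the start were searched on both strands. The letters searched were GAANNTTC and TTCNNGAA (pairs of the unit bound by heat shock factor), CCAAT (the CCAAT box) and CCGGAAG (a core of ETS factors). GAANNTTC occurred in 1 window, of Cct2, against 6.69% of 32851 windows of all genes, and TTCNNGAA in 1 window, of Cct5, against 7.17%. CCAAT occurred in the windows of Cct3, Cct6a, Cct7 and Tcp1, against 33.8%, and CCGGAAG in those of Cct2 and Cct8, against 6.91%. CCAAT stood at 3 places in the window of Cct7 and at 1 place in that of Tcp1. Their windows, and those of Cct5 and Cct2 with the heat shock letters, are printed with the matches in capitals. ATTGG is CCAAT on the other strand, and no window holds matches of more than one kind. The printed window of Cct2 lies downstream of the other start of Cct2, whose own window holds CCGGAAG and no heat shock letters.
Cct7, chr6:85451255-85451504, plus strand: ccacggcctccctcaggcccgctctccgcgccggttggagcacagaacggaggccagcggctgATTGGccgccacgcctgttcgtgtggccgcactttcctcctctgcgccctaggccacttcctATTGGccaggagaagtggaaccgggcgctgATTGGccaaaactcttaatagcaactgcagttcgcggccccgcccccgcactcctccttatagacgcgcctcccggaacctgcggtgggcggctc
Tcp1, chr17:12916079-12916328, plus strand: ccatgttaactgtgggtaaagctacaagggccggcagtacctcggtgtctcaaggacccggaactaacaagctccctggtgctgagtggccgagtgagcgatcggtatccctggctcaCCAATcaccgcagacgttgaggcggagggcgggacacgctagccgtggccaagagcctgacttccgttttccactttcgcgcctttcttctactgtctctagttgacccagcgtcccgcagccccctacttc
Cct5, chr15:31601847-31602096, minus strand: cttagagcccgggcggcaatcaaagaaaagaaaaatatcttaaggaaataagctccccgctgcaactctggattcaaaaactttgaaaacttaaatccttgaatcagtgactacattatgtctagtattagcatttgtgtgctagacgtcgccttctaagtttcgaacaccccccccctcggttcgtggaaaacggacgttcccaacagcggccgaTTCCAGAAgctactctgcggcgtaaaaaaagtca
Cct2, chr10:117063376-117063625, minus strand: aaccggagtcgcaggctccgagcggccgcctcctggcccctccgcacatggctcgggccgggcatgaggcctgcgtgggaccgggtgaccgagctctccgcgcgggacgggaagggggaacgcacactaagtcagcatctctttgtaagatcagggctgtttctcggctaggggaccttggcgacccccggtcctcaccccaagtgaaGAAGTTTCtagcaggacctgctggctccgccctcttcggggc

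In the authors' deposited table, 7 of the 8 subunit genes had an adjusted p under 0.05, all with a positive log2 fold change. Of the 17114 genes, 10.8% were under 0.05 and higher in the authors' deposited table, and 8.53% lower. These include Cct4 (log2 fold change 0.33, adjusted p = 0.0212) and Cct6a (0.36, adjusted p = 0.0272) of the authors' deposited table, and leave out Tcp1 (-0.19, adjusted p = 0.313). The edgeR quasi-likelihood test on the recovered reads also called 7 higher, against a background of 16.5%, and none lower (13.0%), with adjusted p = 0.0222 for Cct4 and adjusted p = 0.0302 for Cct6a. DESeq2 on the same reads called 7 higher (11.9%) and none lower (9.10%). These shares are over all genes. The share at the level of the subunits, 55.0% higher with limma, was not worked out for these tests. The calls of Cct4 and Cct6a therefore depend on the test, while Cct7 and Cct8 were called by each.

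Summed over the 8 genes, the complex had 8320, 8480 and 9177 normalized reads in the KO libraries, against 5765, 5067 and 5452 in the WT libraries, which is 1.60-fold higher in KO cells. The subunit genes took 0.477% ± 0.0239 of all reads in KO cells and 0.351% ± 0.0195 in WT cells (SD, n = 3 each), 1.36-fold higher. The groups did not overlap on either scale. The division of the summed footprints among the subunits also differed. A single factor per library leaves these shares as they are, while cyclic loess, which scales by level, does not. Tcp1 took 4.80% ± 0.133 of the summed normalized reads in KO cells and 8.74% ± 0.223 in WT cells. Cct7 took 10.95% ± 0.638 in KO cells and 6.64% ± 0.2498 in WT cells. Neither share overlapped between the genotypes.

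The other shares moved less. Cct4 took 9.18% ± 0.746 of the summed reads in KO cells and 11.7% ± 0.348 in WT cells, and Cct6a 8.58% ± 1.32 in KO cells and 10.6% ± 0.0995 in WT cells, both without overlap. Cct8 lay slightly above its WT range, at 22.9% ± 0.698 in KO cells and 20.9% ± 0.618 in WT cells. The shares of Cct2, Cct3 and Cct5 overlapped between the genotypes. How often such shares separate in other sets of genes was not worked out.

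**Figure D3:**
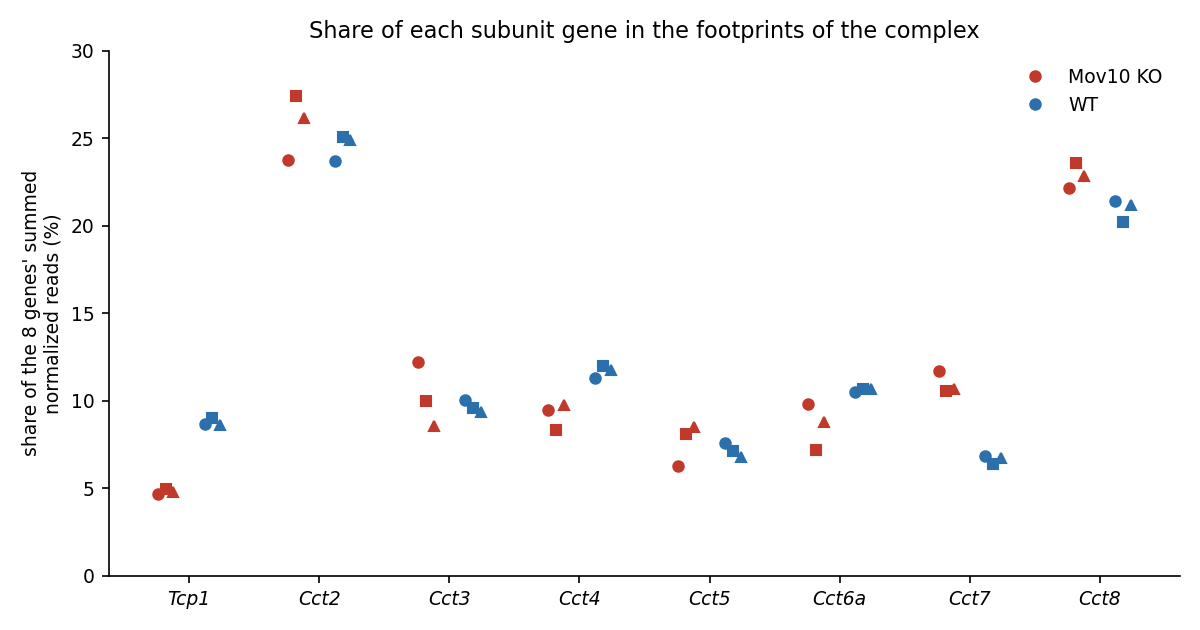
Share of each subunit gene in the summed normalized reads of the 8 genes, in percent, on the y axis, with Mov10 KO libraries in red and WT libraries in blue (circle, square and triangle for replicates 1, 2 and 3). Tcp1 stands at 4.80% in KO cells against 8.74% in WT cells, and Cct7 stands at 10.95% in KO cells against 6.64% in WT cells.

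Taken in pairs, the ratio of one subunit to another separated the genotypes in 18 of 28 pairs and overlapped in 10. Among all pairs of 675 genes read at least as often as Tcp1, with reads in every library, 75.7% were separate, so that this count is not above the background. All 13 pairs with Tcp1 or Cct7, which were singled out after their values were seen, were separate, and 5 of the other 15. The largest shift was that of Tcp1 to Cct7, with a log2 ratio of -1.19 ± 0.12 in KO cells and 0.40 ± 0.09 in WT cells, a difference of -1.58. Cct2, Cct3, Cct5 and Cct8 were grouped after their log2 fold changes, 0.74 to 0.80, were seen, so that small shifts among them follow from that choice. Among these genes the mean log2 ratios differed by -0.06 to -0.00, KO minus WT, with overlapping groups in each pair. Some of these ratios were spread widely over the KO libraries, as for Cct3 to Cct5, with an SD of 0.49 in KO and 0.03 in WT. After cyclic loess the log2 fold changes of these genes were further apart, at 0.19 for Cct2, 0.28 for Cct8, 0.40 for Cct3 and 0.47 for Cct5. The ratio of Cct4 to Cct6a differed by -0.03 and overlapped, and both stood lower relative to Cct2 by 0.42 and 0.39 on the log2 scale. With 3 libraries against 3, no exact test of such a ratio can reach p under 0.1, and none is given.

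The log2 fold changes of the 8 subunit genes had an SD of 0.46. It was 1.20 over all genes tested and 0.96 over the 676 genes at the level of the subunits. Both include an extreme value that widens them, Lratd1 at 11.96, with a mean of 4012 normalized reads in KO and 0 in WT cells. Among the companion lists the SD was 0.42 over 6 tubulin cofactors, 0.68 over both the 4 chaperonin cofactors and the 6 near relatives, 0.81 over 14 genes of the proteasome 20S core, 0.83 over 20 HSP90 and HSP70 genes, 0.87 over 27 folding clients and 1.02 over 9 prefoldin and prefoldin-like genes. These spreads include counting error, which is larger for genes with fewer reads, and no test was made between them.

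Most subunit genes also varied among the KO libraries by more than their read numbers give. Cct5 had a coefficient of variation of 19.8% over the KO libraries and 10.7% over the WT libraries, where counting alone gives 4.75% and 4.09%. Cct6a had 15.7% over the KO libraries and 5.72% over the WT libraries, where counting gives 4.51% and 3.35%. Tcp1, at 6.16% in KO and 4.63% in WT, was close to its counting error of 5.94% and 3.70%. Each subunit gene held between 259 and 2103 reads in any library, and counting errors leave out any PCR duplication, since the reads carry no molecular identifiers.

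Levels of different subunit genes were compared per kb of the gene length that the table lists, which counts untranslated and alternative exons that ribosomes do not read. In KO cells Cct2 came first at 873 ± 88.3 normalized reads per kb and Cct8 second at 641 ± 40.6. Cct5, Cct6a and Cct4 followed between 239.7 and 189.5 normalized reads per kb, each overlapping the next, then Cct7 and Cct3 at 139.8 and 138.5, and Tcp1 last at 82.7 ± 5.09. This order depends on the listed lengths, which run from 2557 bases for Cct2 to 6778 for Cct7. Before division by length, Cct7 and Cct3 stood at 947 and 882 normalized reads in KO cells. That is above Cct4, Cct6a and Cct5 at 796, 743 and 663. In WT cells Cct2 (521 ± 20.7 normalized reads per kb) and Cct8 (369 ± 34.1) again led, and the last place was that of Cct7 at 53.3 ± 5.33. Cct6a, Cct4 and Cct5 overlapped between 165 and 141 normalized reads per kb in WT cells, as did Tcp1 and Cct3 at 94.3 and 82.5.

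The median log2 fold change of all genes was -0.17 in the authors' normalized reads, 0.01 after upper-quartile scaling, -0.39 with library totals and 0.00 after cyclic loess, and that of the 8 subunit genes was 0.74, 0.94, 0.51 and 0.23 in the same order. Upper-quartile scaling called 7 of the 8 higher (background 13.0%) and none lower (7.76%), and library totals called 5 higher (7.43%) and Tcp1 lower (16.7%). After cyclic loess, which moved the subunits by unequal amounts, Cct7, Cct3 and Cct8 were called higher (9.92%) and Tcp1 lower (8.11%). These shares too are over all genes, not over genes at the level of the subunits.

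**Figure D4:**
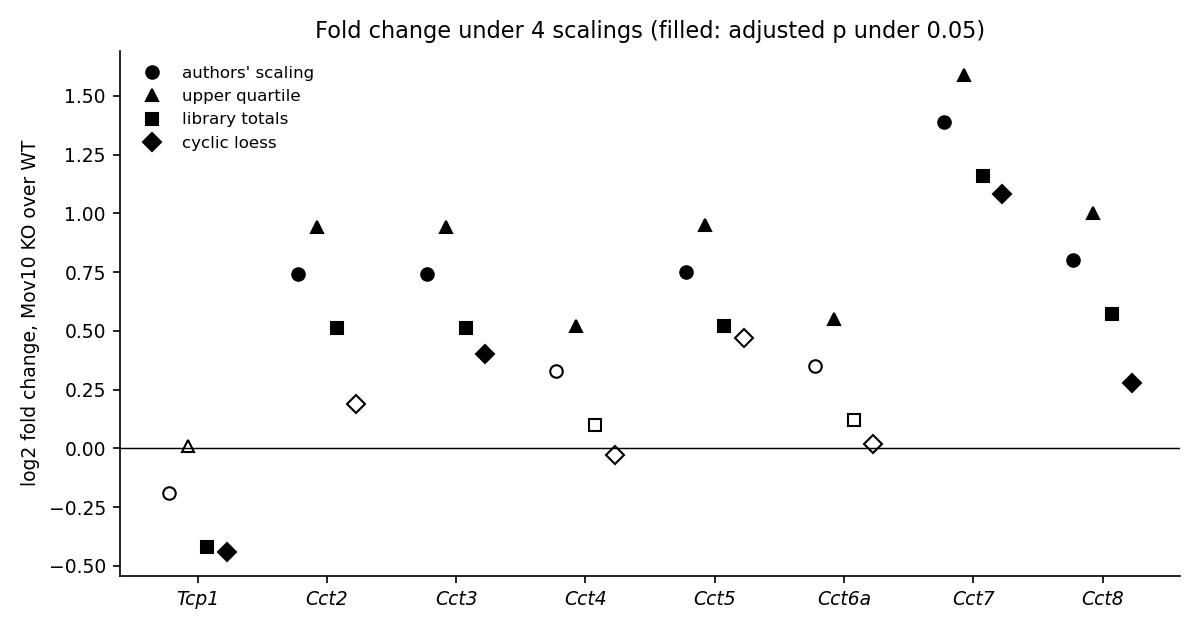
Log2 fold change, Mov10 KO over WT, of each subunit gene on the y axis under 4 ways of scaling the libraries (circle, authors' scaling; triangle, upper quartile; square, library totals; diamond, cyclic loess), filled where the adjusted p was under 0.05. Cct7 stays on top at 1.08 to 1.59 and Tcp1 at the bottom at -0.44 to 0.01.

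Of 6 tested near relatives of the subunits 2 were called higher and none lower. Over all genes tested 10.3% were called higher and 10.9% lower, which is the background for this list and those that follow. Among the 676 genes read at least as often as Tcp1 it is 55.0% and 12.7%. Hspd1 is at that level, as are several called genes of the later lists, among them Gnb1, Actb, Hsp90aa1, Hsp90ab1 and Hspa4. Cct6b, the zeta paralog of the testis, had 1.53 ± 1.63 normalized reads in KO cells and 2.38 ± 1.88 in WT cells, and Cct8l1 had no read in any library. The chaperonin-like genes of Bardet-Biedl syndrome, Bbs10, Bbs12 and Mkks, had 2.77 ± 3.50, 21.3 ± 10.4 and 29.7 ± 16.0 normalized reads in KO cells, against 3.27 ± 2.08, 12.7 ± 5.61 and 27.3 ± 7.61 in WT cells, and none was called. The mitochondrial chaperonin Hspd1 was higher in KO cells, at 709 ± 9.55 normalized reads against 405 ± 12.7 in WT cells (limma, adjusted p = 0.000361). Its lid Hspe1 was higher too, at 240.2 ± 6.66 in KO cells and 119 ± 3.99 in WT cells (limma, adjusted p = 0.00135).

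Prefoldin itself hands unfolded actin and tubulin to the chaperonin. Of 9 prefoldin and prefoldin-like genes, 1 was higher and 1 lower, with a median log2 fold change of 0.35, and the difference from the subunits was not tested. Pdrg1, a prefoldin-like subunit, had 155 ± 19.1 normalized reads in KO cells and 87.7 ± 11.5 in WT cells (limma, adjusted p = 0.0167), a call lost without WT replicate 2 (adjusted p = 0.0880) or 3 (adjusted p = 0.0843). Pfdn5, a subunit of prefoldin itself, had 58.6 ± 30.9 in KO cells and 174 ± 15.9 in WT cells (limma, adjusted p = 0.0113), a call lost without each WT library in turn (adjusted p of 0.0589 to 0.0730). Of 4 tested cofactor genes only Hsf1, the heat shock transcription factor, was called. It was lower, at 33.0 ± 15.3 normalized reads in KO cells and 77.5 ± 6.03 in WT cells (limma, adjusted p = 0.0294), and also lost its call without each WT library (adjusted p of 0.107 to 0.138) and without KO replicate 2 (adjusted p = 0.0518).

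Of 27 tested genes for proteins that TRiC folds, 2 were higher and 5 lower in KO cells, with a median log2 fold change of 0.02. Cdc20, the mitotic activator, had 256 ± 32.4 normalized reads in KO cells and 97.9 ± 8.01 in WT cells, 2.61-fold higher (limma, adjusted p = 0.000677). Gnb1, a G protein beta subunit, was 2.60-fold higher, at 969 ± 90.2 in KO cells and 373 ± 19.0 in WT cells (limma, adjusted p = 5.44e-05). The lower clients included the actins Actb, at 2288 ± 99.0 in KO cells and 3654 ± 203 in WT cells, and Actg1, at 92.4 ± 8.97 in KO cells and 532 ± 54.3 in WT cells. The alpha tubulin Tuba4a was lower as well, at 280.4 ± 19.8 in KO cells and 441 ± 46.3 in WT cells. Among the other tubulins Tubb4b was called lower and none higher. Tubb5, the most read tubulin gene listed, was not called, at 1970 ± 201 in KO cells and 1892 ± 137 in WT cells. Actins and tubulins have close copies in the genome, with which their reads may be shared. Of 6 genes for tubulin cofactors, which take over tubulin from TRiC, Tbce was lower, at 293 ± 58.1 normalized reads in KO cells and 518 ± 28.3 in WT cells (limma, adjusted p = 0.00585), and none was higher.

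Among other machines of protein quality control, 6 of 20 tested HSP90 and HSP70 genes were higher and 2 lower, with a median log2 fold change of 0.28. Hsp90ab1, Hspa2 and Hsph1 were the higher ones with the smallest p, at log2 fold changes of 0.99, 2.33 and 1.04, and Cdc37 and Bag1 were the lower ones, at -0.46 and -2.01. The calls of Cdc37 and Bag1 were lost without each WT library in turn (adjusted p of 0.111 to 0.187). Of 14 genes of the proteasome 20S core, another complex with fixed proportions, Psmb3 was higher at 0.79 and Psma4, Psma6 and Psmb2 were lower at -2.06, -0.59 and -1.42, with a median of -0.31. These 4 calls too were lost without each WT library in turn (adjusted p of 0.0667 to 0.183).

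Some markers of other cells and most of the proliferation genes listed differed between the genotypes, while 1 of 10 progenitor and no T cell markers were called. The background is 10.3% called higher and 10.9% lower over all genes tested. Among the 676 genes read at least as often as Tcp1 it is 55.0% and 12.7%, and several of the proliferation genes are at that level. Of 10 B cell markers 6 were higher and none lower in KO cells, with a summed level of 2149 to 2394 normalized reads in the KO libraries against 1051 to 1098.5 in the WT libraries. Of 9 erythroid markers measured, 5 were higher and 1 lower, summed to 2750.5 to 2890.4 in KO and 1485 to 1628 in WT libraries. The sum is mostly Slc4a1 (904 ± 105 in KO and 314 ± 26.2 in WT cells) and Ank1 (1005 ± 46.3 and 575 ± 32.8). The lower one was the globin gene Hba-a1, at 0.54 ± 0.93 in KO and 23.0 ± 4.42 in WT cells. Hbb-bs and Alas2 also had lower means in KO cells and were not called. Of 10 proliferation genes 7 were higher and 1 lower, summed to 13356 to 14030.1 in KO and 9285 to 9531 in WT libraries. Of 10 progenitor markers 1, Myb, was higher, and their sum was 3697 to 4196 in KO and 3496 to 3564 in WT libraries. The higher sum rests on Myb, with 2481 ± 230 in KO and 1935 ± 30.4 in WT cells. Only 4 of the 10 had a positive log2 fold change, and the median was -0.22. Neutrophil markers (4 higher and 4 lower of 10) summed to 9240 to 10020 in KO and 10656 to 11808 in WT libraries. The lower sum rests on 1 gene, S100a8, with a mean of 371 in KO and 2246 in WT cells. Monocyte markers (1 lower of 5) summed to 472 to 577 in KO and 736 to 826 in WT libraries. That lower sum rests on Ly6c2, with a mean of 21.4 in KO and 324 in WT cells. Neither sum therefore describes its list as a whole. T cell markers (none called of 5) summed to 55.0 to 85.7 in KO and 49.1 to 66.2 in WT libraries. No marker in the table was at 0 in every library. The part of these cells in the subunit values was not tested.

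By the rule for the pattern most like the complex, the protein-coding genes closest to the mean profile of the 8 subunit genes over the 6 libraries were Trim28, Cad, H2-Ab1, Rap1gds1 and Dop1b. Their root mean square differences from it were 0.03, 0.04, 0.04, 0.05 and 0.05 on the log2 scale, out of 6180 genes compared. The profile is mostly the difference between the genotypes.

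Reads of other genes could enter some of these counts, since the sources used here do not say whether counting used the strand. Tcp1 overlaps Mrpl18 on the opposite strand, which had 10.7, 53.4 and 36.2 normalized reads in KO and 57.1, 62.6 and 70.2 in WT libraries. Cct8 overlaps Usp16, Cct7 overlaps Pradc1 and Cct6a overlaps Psph, also on the opposite strand, with 473, 121 and 117 reads over all libraries. The small nucleolar RNA genes inside Tcp1 and Cct6a held at most 1 read, and the processed pseudogenes Cct3-ps1 and Tcp1-ps1 held 3 and 2 reads over all libraries. The part of these overlaps in the subunit values was not tested.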

How the data were processed

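Ribosome footprints of 24 to 36 nucleotides were sequenced, per the labels' protocols. The deposited signal values are reads normalized by the authors to 1 size factor per library. The build was GRCm39, per the submitters' processing notes, and the aligner, counting tool and strand setting are not stated there or in the labels, and so not given in the sources used here. Of values above 0, 99.9757% were whole reads within 0.05 of a read. Rps29, Camp, Igkc, Ssr4 and Rpl27, whose values were not whole, were left out.

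Log2 values of the deposited normalized reads plus 1 were tested with limma 3.58.1 (variance trend) in R 4.3.3 over 17114 genes with a mean of at least 1, with Benjamini-Hochberg adjusted p-values called under 0.05. This took the place of the count test planned for raw counts. On the recovered reads edgeR 4.0.16 called 3213 of 10891 genes. The fold changes and p-values of the authors' deposited table are given as the authors' own. With 3 reads as the floor, a count of 0 allows 4.02 to 4.85 normalized reads in KO and 1.84 to 2.04 in WT libraries, for counting error only.

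The members and companion lists (prefoldins, chaperonin cofactors, near relatives, folding clients, tubulin cofactors, proteasome core, HSP90 and HSP70, cell markers) were chosen with earlier results of these data known. Named from each list were all called genes where 6 or fewer, otherwise the 3 higher and 3 lower with the smallest p, plus Hsf1 and the near relatives, and the 5 genes with the profile most like the complex. Levels per codon were planned, but no protein lengths were used here and the listed gene length took their place. Other scalings, filters, pseudocounts, tests, thinning, a replicate block and leaving out each library were tried.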

Additional observations from a re-analysis of the deposited data

How the results depend on the processing

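Cct7 and Cct8 were called higher in all 19 alternatives, and for results that changed the cause was not tested. For the subunit genes the median log2 fold change was 0.94 with upper-quartile scaling, 0.51 with library totals, 0.23 after cyclic loess and 0.55 in thinned libraries. Its distance from the median of all genes was 0.23 after cyclic loess, 0.75 with DESeq2, 0.73 with a mean of at least 50 and 1.05 with a pseudocount of 0.1. Subunits called higher numbered 3 after cyclic loess and 2 with no variance trend, and 1 subunit, Tcp1, was called lower with library totals, cyclic loess and thinning. Over all genes, 2872 were lower with library totals and 1158 with a mean of at least 50, and 1149 were higher after thinning. The split was 2248 higher and 1338 lower with upper-quartile scaling, and 1279 higher and 2872 lower with library totals, against 1757 and 1871. Leaving out each library gave 4 to 7 subunits called higher, a median of 0.66 to 0.79, and over all genes 1239 to 4585 calls, 836 to 2090 higher and 403 to 2497 lower. The lowest counts, 1449, 1284 and 1239, came without WT replicates 1, 2 and 3. The sign turned for Tcp1 with upper-quartile scaling (0.01) and Cct4 after cyclic loess (-0.03). It turned for Kit with TMM (-0.06), library totals (-0.20), cyclic loess (-0.43) and thinning (-0.18), for Cct6b with cyclic loess (0.03) and thinning (0.19), and for Bbs10 with cyclic loess (0.01). It also turned for Mkks with upper-quartile scaling (0.15), cyclic loess (0.21), edgeR (0.15) and DESeq2 (0.13). Without single libraries Cct6b ran between -1.01 and 0.03, Bbs10 between -1.28 and 0.20 and Mkks between -0.34 and 0.53. Same-numbered libraries did not deviate together (r of -0.0294, -0.0055 and -0.0211), and a replicate block called 7 subunits higher, with Cct4 at adjusted p = 0.0473 and Cct6a at adjusted p = 0.0386 (limma), and 3245 genes in all. The shallower KO libraries limit genes with few reads.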
